A study of Mus musculus with 28 samples.

Results

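The cornified envelope genes of mouse epidermis were followed across libraries with and without the histone demethylase gene Kdm6a. The set held every gene whose symbol starts with Lce or Sprr, together with Lor, Ivl, Flg2, Hrnr, Rptn, Crct1, Kprp, Lelp1, Crnn, Cnfn, Cst6, Sbsn, Dmkn and Krtdap. It came to 51 of the 24946 genes with a usable symbol in each table of normalized values, and Flg, the filaggrin gene, was not analysed here. By role there were 21 Lce genes (14 of them Lce1 and 6 Lce3), 16 Sprr genes, the major precursors Lor and Ivl, 4 genes of the S100-fused type, 3 other genes of the same chromosomal complex and 5 genes outside it.

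The cornified envelope is the insoluble protein shell that replaces the plasma membrane of keratinocytes as they die at the skin surface, and transglutaminases build it by crosslinking precursor proteins. Involucrin is laid down early, loricrin makes up most of the mass, small proline-rich (SPRR) proteins act as crosslinking bridges, and late cornified envelope (LCE) proteins are added late. Most of these genes sit in tandem in the epidermal differentiation complex, which the GENCODE annotation of GRCm38 places on mouse chromosome 3. In that annotation 46 of the 51 genes lie there, from Lor (92080271 to 92083142) to Rptn (93393699 to 93399442). The 14 Lce1 genes run from Lce1a1, which begins at 92646535, to Lce1m, which ends at 93019060 beyond the Lce3 genes.

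Kdm6a, also called Utx, encodes an X-linked demethylase of histone H3 lysine 27, and the study deleted it with a Cre recombinase driven by the keratin 14 promoter. Poly(A) RNA of whole murine epidermis was sequenced with a kit that keeps strand. Every animal except 1 carried at least 1 floxed (fl) allele, controls included: female controls were Cre-; Utx fl/fl and female conditional knockouts (cKO) Cre+; Utx fl/fl, and male controls were Cre-; Utx fl/Y and male knockouts Cre+; Utx fl/Y. Young male control 3 was Cre-; Utx +/Y, with no floxed allele. The 4 tables compared 4 control with 5 knockout young females, 3 with 3 young males, 2 with 2 aged females and 3 with 3 aged males, 25 libraries in all. Young and aged are the words of the table titles, and ages in weeks are not given in the sources used here. Heterozygous young females (Cre+; Utx +/fl, 3 samples) had only group means and test results. Controls lacked Cre, so an effect of the recombinase or of the transgene and an effect of Kdm6a loss cannot be told apart. Nothing states whether libraries came from separate animals, and p-values measure the spread between these libraries.

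Some libraries stood apart or went against their labels. Kdm6a ran from 1265 to 1663 normalized reads in young female controls and from 873 to 1154 in the knockouts, and from 816 to 1187 against 460.2 to 573 in young males. A Gh transcript was at 331 to 820.2 in every knockout library of young females, young males and aged females and at most at 2.58 in their controls. In aged males the libraries labelled control 5 and control 6 had Gh at 2443 and 559 and Kdm6a at 1224 and 1511, and the library labelled knockout 5 had Gh at 0 and Kdm6a at 1322. Kdm6a was 1090 in control 4 and 584 and 673 in knockouts 4 and 6. Only Gh thus went against the label in controls 5 and 6, while both genes did in knockout 5. Both aged female knockouts had Xist at 17.1 and 14.4, against 20923 and 18431 in the controls, and neither arm held more than 2.07 of the Y-linked Ddx3y. Depth, estimated from the spacing of low values, was about 15800000 to 34400000 reads a library. Basal keratinocyte markers were high in all 25 libraries, with a summed level of 481937 to 870830. The sum of 8 skeletal muscle markers reached 11218 in young male control 3 and 15591 in aged male control 4.

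Promoter sequences, 250 bases before to 50 after the annotated start, are shown for 4 genes whose values differ below: Lce1e, the Lce1 gene with the most negative change in both female tables, Lce1m, the Lce1 gene nearest to no change in young males and aged females, and Ivl and Sprr2h, whose means were higher in young female knockouts. They are RefSeq sequences of GRCm38.p6, 5′ to 3′ along the gene, from chr3:92709025-92709324, chr3:93019012-93019311 and chr3:92573686-92573985 on the minus strand and chr3:92385435-92385734 on the plus strand. Capitals mark matches on either strand to TGACTCA (the AP-1 motif), TATAAA (the TATA box) or GGGTGTG (a Klf4 motif).
Lce1e: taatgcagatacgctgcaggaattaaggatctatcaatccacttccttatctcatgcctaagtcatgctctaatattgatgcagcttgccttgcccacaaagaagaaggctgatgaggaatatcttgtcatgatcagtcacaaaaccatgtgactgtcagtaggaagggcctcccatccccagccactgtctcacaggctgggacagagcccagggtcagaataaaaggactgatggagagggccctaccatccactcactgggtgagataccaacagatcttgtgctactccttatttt
Lce1m: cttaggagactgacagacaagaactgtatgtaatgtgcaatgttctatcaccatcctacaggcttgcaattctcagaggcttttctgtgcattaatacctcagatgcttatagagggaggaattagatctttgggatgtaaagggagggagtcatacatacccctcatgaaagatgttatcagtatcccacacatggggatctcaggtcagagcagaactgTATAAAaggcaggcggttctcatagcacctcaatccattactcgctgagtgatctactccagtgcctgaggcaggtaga
Ivl: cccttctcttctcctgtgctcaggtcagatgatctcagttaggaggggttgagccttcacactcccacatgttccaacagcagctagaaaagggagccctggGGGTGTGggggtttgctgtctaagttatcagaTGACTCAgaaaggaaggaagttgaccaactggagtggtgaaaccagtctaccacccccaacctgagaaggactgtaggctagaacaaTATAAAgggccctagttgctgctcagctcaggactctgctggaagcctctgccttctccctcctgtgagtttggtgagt
Sprr2h: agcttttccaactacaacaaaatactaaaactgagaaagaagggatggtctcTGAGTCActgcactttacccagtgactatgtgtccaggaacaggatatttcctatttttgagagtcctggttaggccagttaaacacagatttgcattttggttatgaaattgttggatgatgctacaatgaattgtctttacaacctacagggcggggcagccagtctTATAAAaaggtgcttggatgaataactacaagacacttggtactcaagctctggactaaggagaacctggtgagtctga

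Over the 47 promoter sequences of 45 members, TGACTCA occurred in 15 (31.91%), against 1709 of 32851 promoters in the whole table (5.2%). It occurred in 8 of 14 Sprr promoters and in 0 of 13 Lce1 promoters. In Ivl it began 116 bases before the start and in Sprr2h 198 bases before it. TATAAA occurred in 10 of 14 Sprr promoters, in 2 of 13 Lce1 promoters (Lce1d and Lce1m) and in 13.62% of all promoters. GGGTGTG occurred in 3 member promoters (6.38%) and in 7.95% of all, and AACCGGTT, the grainyhead motif, in none of the 47 and in 0.15% of all. Pairwise identity among the 12 Lce1 promoters other than that of Lce1m was 51.0% to 86.0% with a median of 66.6%, and that of Lce1m with them 52.4% to 55.2%. Such low identity was not particular to Lce1m, since the Lce1l promoter had 51.0% (with Lce1h) to 56.2% (with Lce1e). A match is a run of letters and no measure of binding.

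Of the 51 genes, 43 reached the minimum of 10 normalized reads, in as many libraries as the smaller group, in at least 1 table, and 35 did so in all 4. The 8 that never did were Lce3a, Lce3b, Lelp1, Sprr2b, Sprr2i, Sprr2j-ps, Sprr2k and Sprr3, with a highest value of 24.1 in any library, and Lelp1 was at 0 in all 25. Sprr3, a bridge protein of internal epithelia, was at most 1.75 in any library. Another 7 genes (Lce3d, Lce3e, Lce3f, Sprr2d, Sprr2e, Sprr2f and Sprr2g) were tested in aged males alone. Per kilobase of exon, the control means of young females were 65670 for Krtdap, 45059 for Dmkn, 41594 for Lor and 31113 for Lce1m, and 360 for Ivl and 294 for Lce1e.

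Each gene was compared between knockout and control within a table, on log2(value + 1), by limma over all genes tested with Benjamini-Hochberg adjustment at 0.05. Fold changes of low genes are understated on this scale. In young females 2 of 35 genes were called, both higher (5.71%), beside 547 of 13898 genes (3.94%) called in either direction and 1.54% called higher. In aged females 2 of 36 were called, both lower (5.56%), beside 98 of 14652 (0.669%) called in either direction and 0.498% called lower. None of 35 was called in young males or of 43 in aged males by limma, beside 0.0146% and 0.014% of all genes. At an unadjusted p under 0.05 the counts were 10 and 8 in young females and males and 20 and 1 in aged females and males, beside 16.6%, 2.33%, 14.3% and 0.83% of all genes. The groups did not overlap for 3 of 35, 3 of 35, 25 of 36 and 0 of 43 members, beside 8.63%, 5.88%, 44.3% and 4.57% of all genes. The median change of the tested members was -0.13, -0.43, -0.41 and 0.24 in that order, while the median of all genes lay within 0.01 of 0 in every table. RNA came from whole epidermis, so fewer cells of a type and less RNA per cell cannot be told apart in any of these values.

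**Figure D1:**
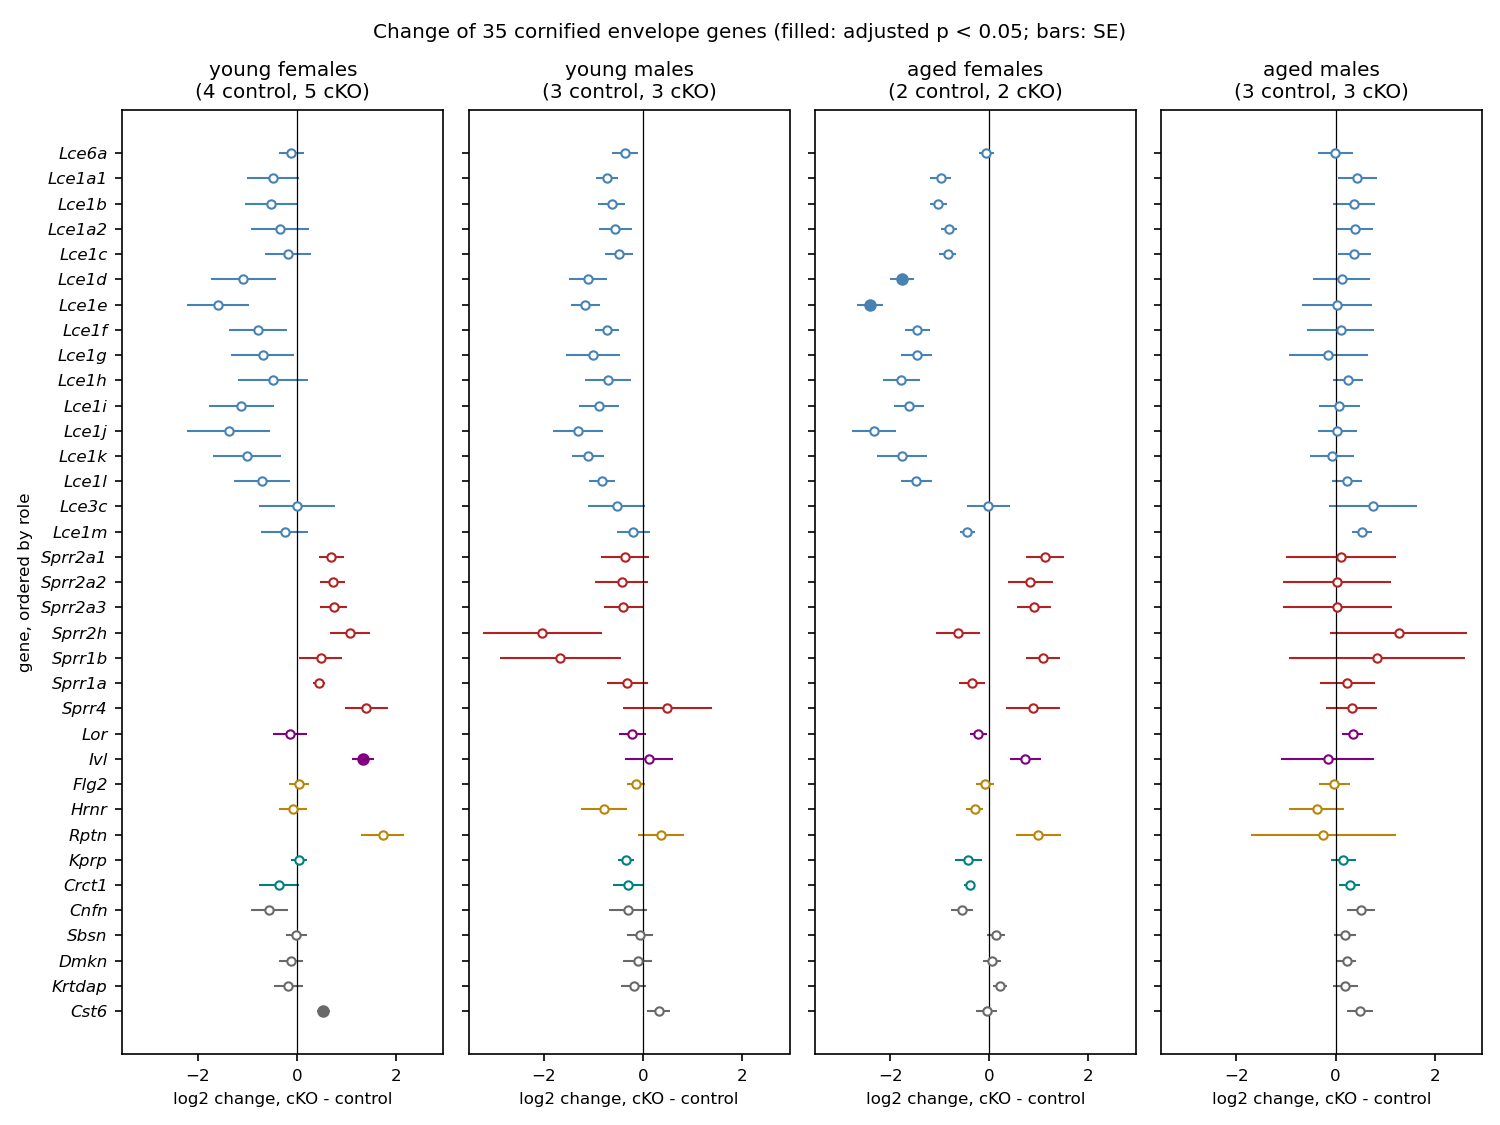
Each point is the log2 change of 1 gene (knockout minus control, horizontal axis) with its standard error, in 4 panels for the 4 tables, for the 35 genes tested in all of them, coloured by role and ordered within it along the chromosome. Filled points passed an adjusted p of 0.05: Ivl and Cst6 in young females and Lce1d and Lce1e in aged females; the Lce1 genes lie left of 0 in 3 panels and mostly right of it in aged males.

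The Lce1 genes, which encode late-added envelope proteins, were lower in knockouts in most of their comparisons. In young females 14 of 14 had a change below 0 (median -0.69), in young males 14 of 14 (median -0.78) and in aged females 14 of 14 (median -1.47), while in aged males 12 of 14 lay above 0 (median 0.17). These are counts of fitted changes over genes that share libraries. The 14 genes vary together (median Pearson's r 0.87, group means removed), so they are not 14 separate results. Of all genes tested, 7090 of 13898, 6999 of 13743 and 7209 of 14652 lay below 0 in young females, young males and aged females. In aged males 7157 of 14330 lay above 0. Lce1d and Lce1e fell past the threshold in aged females, and no other Lce1 gene did in any table. Within the family, Lce1e and Lce1j had the most negative changes in these 3 tables, and Lce1m was among the 2 genes nearest to 0 in each.

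Lce1e in aged females was 337 and 542 in controls against 79.2 and 80.6 in knockouts. Both knockouts lay far under both controls, and the change was -2.41 (SE 0.26, limma adjusted p = 0.0335). Lce1d read 1022 and 1733 in controls against 379 and 402 in knockouts, again with no overlap, a change of -1.77 (SE 0.24, limma adjusted p = 0.048). Lce1j, whose change was second to that of Lce1e in size, was 348 and 929 in controls against 129.9 and 97.6 in knockouts. Its change of -2.33 (SE 0.45) had a limma adjusted p of 0.0896, and the controls themselves differed more than the knockouts did. All 14 Lce1 genes had an unadjusted p under 0.05 in this table, and all 14 had no overlap between groups, which was also the case for 44.3% of all genes with 2 against 2 libraries. With 2 against 2, an exact permutation test cannot go below 0.333 (two-sided).

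The Lce1 calls of aged females were lost, with changes of similar size, when a library other than control 5 was left out. Without control 6, knockout 6 or knockout 7 neither Lce1d nor Lce1e was called (limma adjusted p 0.0855 to 0.161 and 0.0887 to 0.123), at changes of -1.81 to -1.39 and -2.42 to -2.06. Without control 5, 7 Lce1 genes were called lower (0.113% of all genes), where the lone library of an arm was assumed to vary like the other arm. With a term for the series of library numbers, 9 Lce1 genes were called lower, beside 2.1% of all genes called lower and 2.94% in either direction; that fit has few residual degrees of freedom. Both knockouts of this table lacked Xist, so no value without such libraries can be given. Sebaceous markers (6 of 6 measured) summed to 83619.6 and 95118 in the controls and to 52592 and 62602 in the knockouts. Adipocyte markers (4 of 4) summed to 427 to 561 against 122 to 158, and no marker of either list was at 0 in all libraries. Of these 2 lists Adipoq alone was called by limma, lower in knockouts, beside 0.498% of all genes called lower. Hair follicle markers (10 of 10) had a median log2 change of -2.67 with none called by limma, while their sum overlapped, with controls at 56203 and 60267 against knockouts at 52874 and 62988. Skeletal muscle markers (8 of 8) had a median of -1.73, none called, and summed to 867 and 5104 against 192 and 2622. No marker of these lists was at 0 in all libraries. The part of these cell types in the Lce1 values was not tested.

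In young females Lce1e was 286, 280.3, 41.5 and 229 in controls against 75.9, 56.0, 21.6, 39.6 and 135 in knockouts. Control 3 lay among the knockouts and the other 3 controls lay above all 5, for a change of -1.59 (SE 0.63, limma adjusted p = 0.228). Lce1j was 226, 186, 16.8 and 249 in controls against 45.7, 56.2, 14.6, 27.0 and 159.6 in knockouts, with the same control among the lowest values and knockout 5 close to the other controls. Lce1i, with a change of -1.12 (SE 0.65), read 431, 430.2, 47.3 and 407 in controls against 124, 139, 50.6, 92.2 and 222 in knockouts. Lce1d showed 620.0, 695, 94.9 and 725 in controls against 243, 198, 76.8, 147.8 and 521 in knockouts and again control 3 was the lowest control, below 4 of the 5 knockouts. Adjusted p-values of the 14 Lce1 genes in limma were 0.228 to 0.881. Without control 3, Lce1e (-2.24), Lce1i and Lce1k were called lower, beside 1.45% of all genes called lower. Control 3 is the only control of its series of library numbers, whose knockouts 3 and 4 stayed in that fit. Knockout and series are therefore mixed in the changes of that fit.

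Library titles fall into series of library numbers, and control 3 with knockouts 3 and 4 share one. The summed level of the 14 Lce1 genes was 14739 to 20448 in these 3 libraries and 38687 to 69396 in the other 6 of young females. Within series U011 (controls 1 and 2, knockouts 1 and 2) 14 of 14 Lce1 genes lay below 0 with a median of -1.19, within U046 (control 4, knockout 5) 13 of 14 with a median of -0.37, and within U025 (control 3, knockouts 3 and 4) 12 of 14 lay above 0 with a median of 0.39. Lce1e was -2.10, -0.76 and -0.49 in that order, below 0 in each. On the 4 libraries of U011 alone, a choice made after the values were seen, limma called 9 Lce1 genes lower, from -0.61 for Lce1a1 to -2.13 for Lce1k, beside 1.43% of all genes called lower, and Ivl was called higher, beside 0.994%. Without the 3 libraries of U025, Lce1i alone was called, beside 0.69% of all genes. With the series as a term over all 9 libraries, 11 members were called, beside 14.5% of all genes; of the Lce1 genes Lce1e was called lower, beside 8.4%, at -1.30 (SE 0.30, limma adjusted p = 0.0182).

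**Figure D2:**
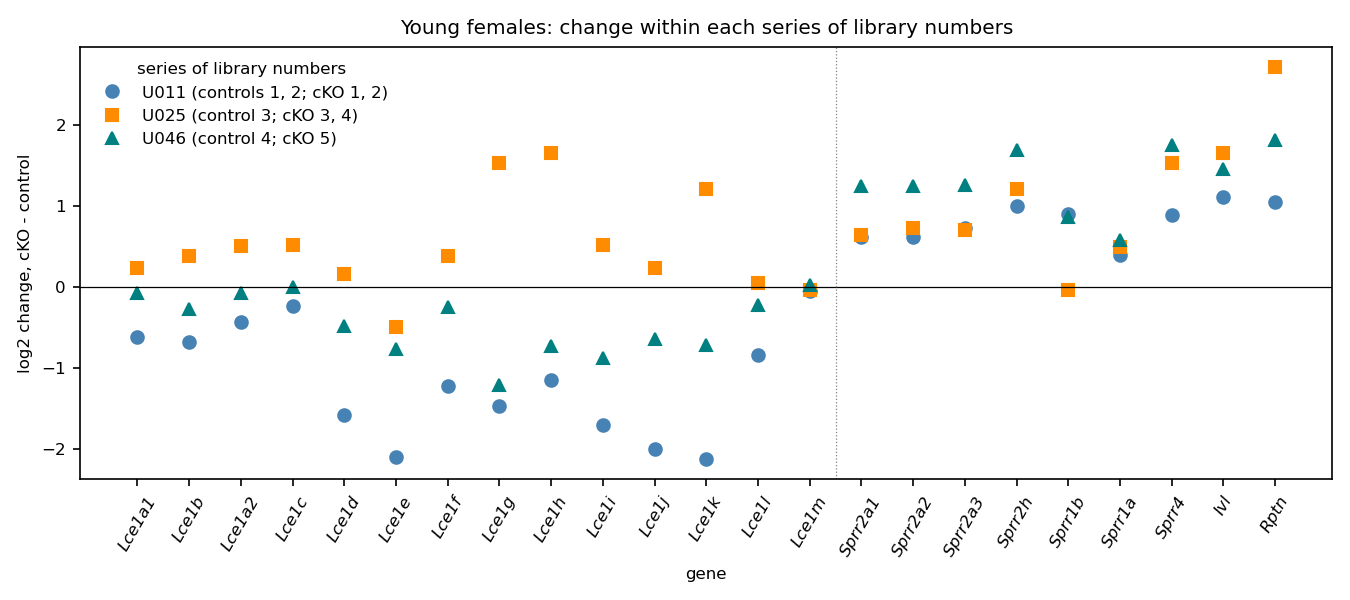
The log2 change of each gene (vertical axis) in young females was computed separately within each series of library numbers, for the 14 Lce1 genes (left of the dotted line) and for the Sprr genes, Ivl and Rptn (right). Blue circles are means of 2 controls and 2 knockouts, orange squares 1 control and 2 knockouts, and teal triangles 1 of each; the Lce1 genes differ between series (medians -1.19, 0.39 and -0.37), while on the right 9 of 9, 8 of 9 and 9 of 9 genes lie above 0.

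In young males Lce1e was 360.2, 457 and 438 in controls against 139, 297 and 152 in knockouts. No knockout reached a control, and the change was -1.17 (SE 0.29, limma adjusted p = 0.9999); with 3 against 3 an exact permutation test cannot give less than 0.1. Lce1d was 894, 1558 and 1294 in controls against 361, 1064 and 462.1 in knockouts, and knockout 2 lay above control 1. Lce1j read 326, 729 and 368 in controls against 93.1, 383 and 160.3 in knockouts, with the same knockout above 2 controls, and its change of -1.31 (SE 0.51) was the most negative of the Lce1 genes. Lce1a1, Lce1e and Lce1k were the 3 members whose groups did not overlap. Within pairs from the same series the Lce1 medians were -0.86, -0.49 and -0.99, with 14, 11 and 14 of 14 genes below 0. Without control 3 and knockout 3, the pair whose control had no floxed allele, the median of all members was -0.37 and none was called. With the series as a term none was called either, beside 0.0509% of all genes.

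In aged males Lce1e was 234, 547 and 2083 in controls against 686, 494 and 845 in knockouts. Control 6 was the highest library and control 4 the lowest, so the knockouts lay between controls. Lce1d, at 745, 1454 and 4489.7 in controls against 1805, 1735 and 1997 in knockouts, had the same order, with control 6 more than every knockout. Within pairs the Lce1 median was 1.13 (control 4, knockout 4), 0.33 (control 5, knockout 5) and -0.72 (control 6, knockout 6). Only the control 4 and knockout 4 pair held libraries that both matched their labels in Gh as well as in Kdm6a. In the pair of control 6 and knockout 6, Kdm6a matched both labels and Gh that of the knockout alone.

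**Figure D3:**
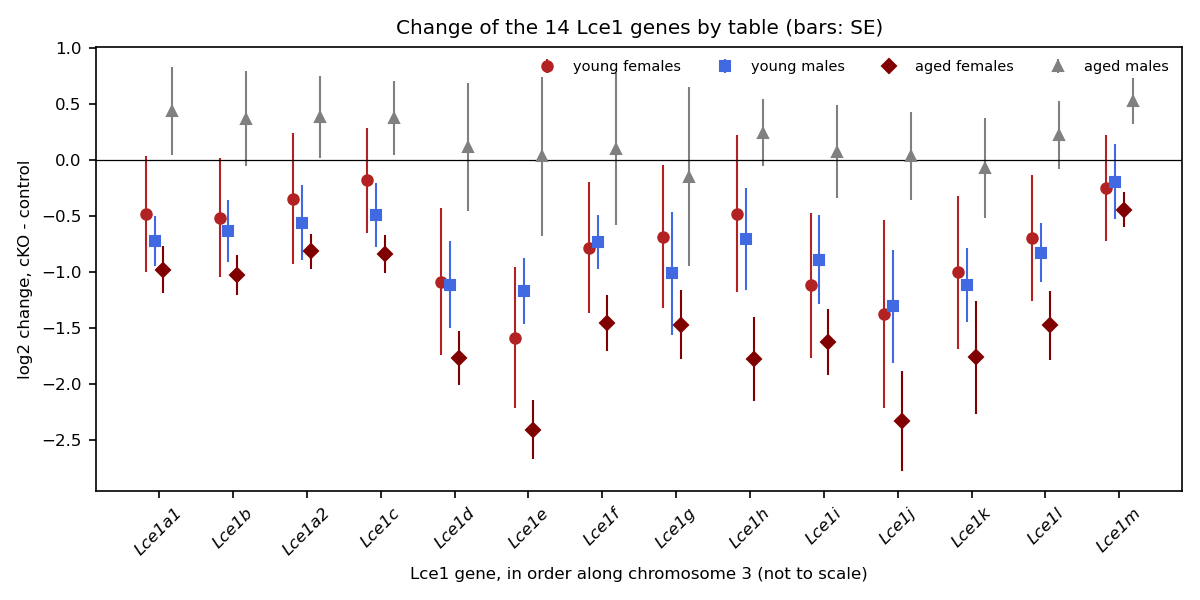
The log2 change (knockout minus control, vertical axis) of the 14 Lce1 genes is drawn in their order along chromosome 3, with standard errors, for each of the 4 tables. The values of both female tables and of young males lie below 0 for all 14 genes, deepest at Lce1e (-2.41 in aged females) and Lce1j and nearer to 0 at Lce1c and Lce1m; aged males lie between -0.15 and 0.53.

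The change of an Lce1 gene went with its level. Across the 14 genes Pearson's r between the change and the log2 mean level was 0.66 in young females, 0.81 in young males, 0.81 in aged females and 0.91 in aged males, a description over genes that share libraries and, in part, sequence. The level is the mean over controls and knockouts, so the change is part of it, which by itself pushes r upward. Lce1m, the most abundant, was 29674 and 38192 in aged female controls and 25233 and 24378 in the knockouts, a change of -0.44, and 12326 to 46879.5 against 10749 to 41794 in young females, which overlapped (-0.25). Lce1 genes other than Lce1m share 9.1% to 27.1% of their 50-base words with another gene, and how reads with several matches were counted is not given in the sources used here. Lce1m shares none.

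Lce3 genes, whose human counterparts are known for induction after barrier damage, were low. Lce3c, the highest of them, was 75.9, 97.4, 5.92 and 49.0 in controls against 58.1, 97.3, 26.7, 14.5 and 42.9 in knockouts in young females, where control 3 stood lowest, and its change was 0.01. Lce3d, Lce3e and Lce3f passed the filter in aged males alone, through control 6, knockout 4 and knockout 6, and Lce3a and Lce3b passed it nowhere. Lce3d there was 0.966, 3.18 and 48.9 in controls against 31.7, 0 and 63.4 in knockouts, and Lce3f 2.89, 0 and 68.0 in controls against 12.3, 1.09 and 37.3 in knockouts. Lce6a, a single-copy member, ran over 205 to 364 in controls and 165 to 389 in knockouts of young females. It was 331, 492 and 837 in controls against 588, 600.1 and 379 in knockouts in aged males, where control 6 was highest and control 4 lowest. Its change was -0.11, -0.36, -0.06 and -0.01 in the order given above, none of them called.

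**Figure D4:**
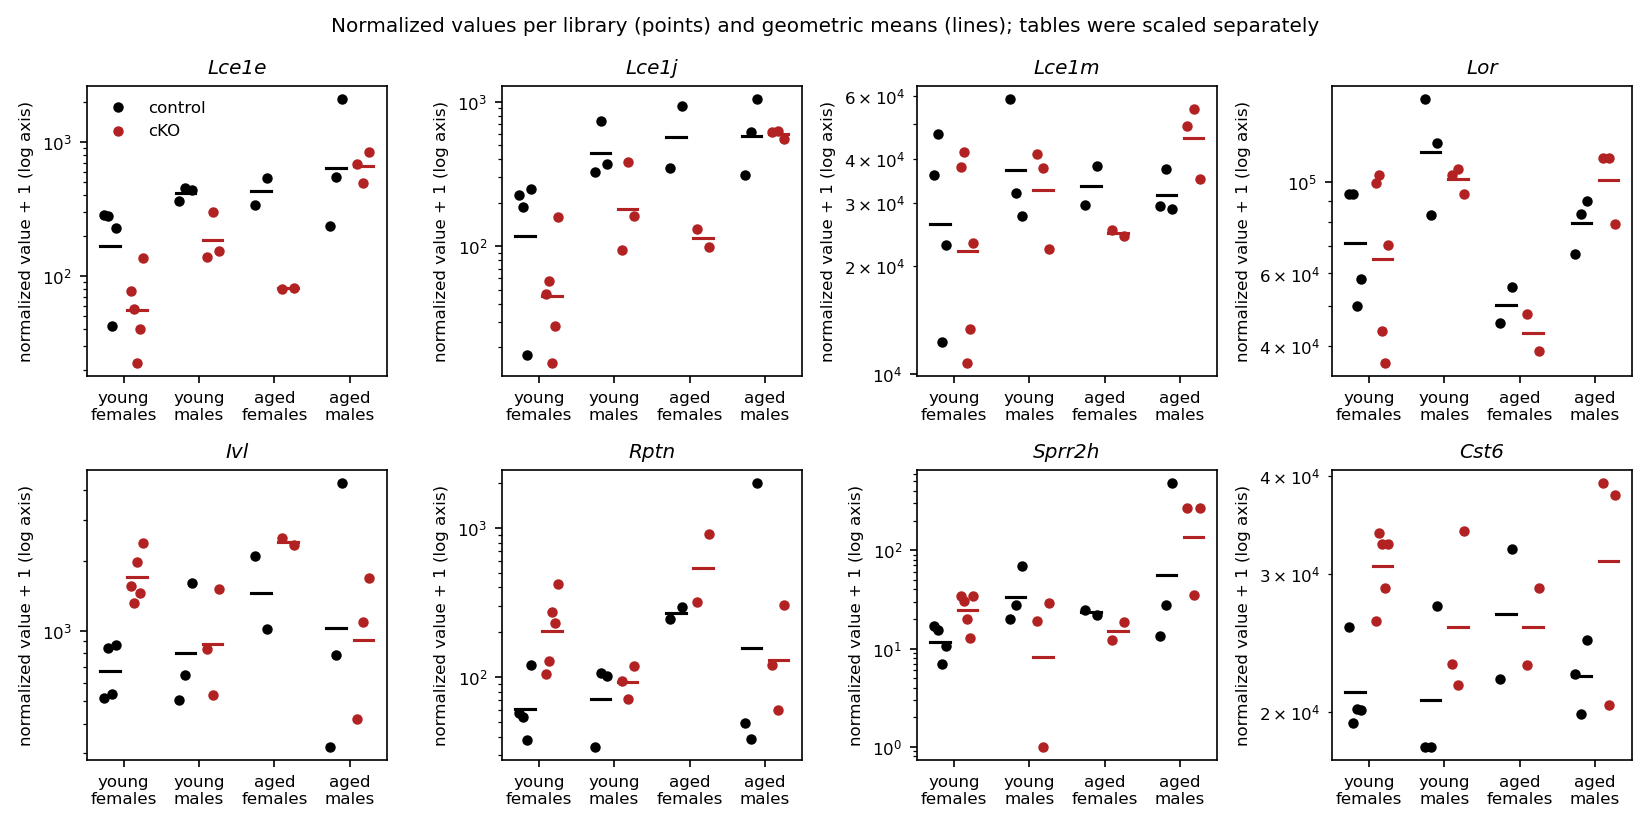
Normalized values plus 1 (log vertical axis, different in each panel) of 8 genes are shown per library, black for controls and red for knockouts, with geometric means as lines, in 4 tables that were scaled separately. Ivl and Cst6 knockouts of young females lie above all controls (1309.6 to 2389 against 513 to 869.9 for Ivl), Lce1e knockouts of aged females (79.2 and 80.6) lie below both controls, and 1 aged male control is highest for Lce1e, Ivl, Rptn and Sprr2h.

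Involucrin, the early scaffold protein, was the member with the most firmly called change. Ivl in young females was 513, 847, 536 and 869.9 in controls against 1549.6, 1309.6, 1973, 1452 and 2389 in knockouts. Every knockout exceeded every control. The change was 1.33 (SE 0.22, limma adjusted p = 0.00834), and a two-sided exact permutation test gave 0.00794, as low as 4 against 5 libraries can give. It stayed called when any 1 of the 9 libraries was left out, and within series it was 1.11, 1.66 and 1.46 (U011, U025, U046); without the 3 libraries of U025 it was 1.23 with a limma adjusted p of 0.117. Langerhans cell and myeloid markers (6 of 6 measured, none at 0) summed to 20997 to 27703 in the controls and 28010.1 to 39179.6 in the knockouts of young females. Csf1r alone of them was called by limma, higher in knockouts, beside 1.54% of all genes called higher. The part of these cells in the Ivl values was not tested. In aged females Ivl was 2088 and 1013 in controls against 2488 and 2325 in knockouts, a change of 0.73 (SE 0.31, limma adjusted p = 0.368) with no overlap between groups. Young males overlapped, at 506, 643 and 1599.9 in controls against 837, 527 and 1506 in knockouts and a change of 0.12 (SE 0.48). In aged males, 317, 785 and 4296 in controls against 416, 1092 and 1686 in knockouts, control 6 was the highest of all. The difference between young females and young males was 1.22 (SE 0.53, unadjusted p = 0.0412, adjusted p = 0.9994 over all genes, from the moderated standard errors of limma).

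Loricrin, the most abundant precursor by known mass, did not pass the test in any table. Lor was 93902, 93797, 50037 and 58248 in controls against 99596, 104359.9, 43517, 36356 and 70264 in knockouts in young females, with the U025 libraries lowest in both groups. It was 159375, 83192 and 124598 in controls against 104067, 107970.2 and 93703 in knockouts in young males and 45457 and 55649 in controls against 47867 and 38796 in knockouts in aged females. In aged males it was 67072, 83742 and 90074 in controls against 114853, 114431 and 79122 in knockouts. The changes were -0.13, -0.22, -0.22 and 0.35, with standard errors of 0.35, 0.27, 0.17 and 0.21, and the groups overlapped in each table.

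The Sprr genes, whose products bridge other precursors, had changes of the opposite sign to the Lce1 genes in young females. Of 7 tested, 7 lay above 0 in young females (median 0.72) and 5 in aged females (median 0.87), 6 lay below 0 in young males (median -0.40) and 11 of 11 lay above 0 in aged males (median 0.77), and none passed the adjusted threshold in any of the 4 tables. In young females 6 of the 7 had an unadjusted limma p under 0.05, the exception being Sprr1b. Within series of library numbers the Sprr median of young females was 0.73 (U011), 0.70 (U025) and 1.25 (U046), and with the series as a term 6 Sprr genes were called higher, beside 6.07% of all genes. The other tables were less even. In aged females the median was -0.14 for control 5 and knockout 6 (3 of 7 above 0) and 1.64 for control 6 and knockout 7 (6 of 7). In aged males it was 4.23 for control 4 and knockout 4 (11 of 11 above 0), -1.01 for control 5 and knockout 5 (2 of 11) and -0.05 for control 6 and knockout 6 (4 of 11), so most of them lay above 0 in that first pair alone. Sprr2e, Sprr2f and Sprr2g reached the minimum there only in control 6 and knockouts 4 and 6. The filter thus favoured a change above 0 for these genes, which the count and median of aged males include.

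Sprr1a was 4991, 3670.4, 4057 and 4673 in controls against 5367, 5882, 6121, 5338 and 7013 in knockouts in young females. All 5 knockouts lay above all 4 controls, with a change of 0.45 (SE 0.12, limma adjusted p = 0.0621), and of 0.47 with the series as a term (limma adjusted p = 0.00857). Sprr4 was 70.3, 46.7, 105 and 114.5 in controls against 110.5, 105, 333, 281 and 389.9 in knockouts, and its change of 1.40 (SE 0.44) had a limma adjusted p of 0.12, or 0.00185 with the series as a term. Knockouts 1 and 2 were no higher than control 4, and knockouts 3 to 5 were the highest libraries. Sprr2h, at 15.8, 14.4, 5.97 and 9.51 in controls against 32.9, 29.60, 19.2, 11.9 and 32.9 in knockouts, had a change of 1.07 (SE 0.40) with 1 knockout among the controls. Sprr1b read 44.6, 35.4, 36.1 and 50.2 in controls against 77.6, 72.9, 69.5, 17.4 and 92.0 in knockouts, and knockout 4 alone fell below the controls.

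Sprr2a1, Sprr2a2 and Sprr2a3 cannot be separated with confidence, since 96.3%, 96.5% and 61.1% of their 50-base words occur in another gene. Sprr2a1 was 2478, 1309, 1426 and 1961 in controls against 3131, 2455, 2124, 2329 and 4651 in knockouts in young females and 608 and 264 in controls against 750.1 and 1030.1 in knockouts in aged females. The changes of the 3 copies were 0.70, 0.72 and 0.74 in young females and 1.13, 0.83 and 0.90 in aged females. Knockout means were higher in both tables, with control 1 of young females inside the knockout range.

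Young males had other values. Sprr1b there was 25.3, 110.1 and 669 in controls against 10.5, 36.7 and 139 in knockouts, with control 3 alone at the top, a change of -1.67 (SE 1.22). Sprr2h was 19.1, 26.4 and 68.1 in controls against 18.2, 0 and 27.98 in knockouts; it was listed at 0 in knockout 2, so its change of -2.03 depends on the pseudocount. Sprr4 was 17.6, 83.3 and 222.9 in controls against 52.8, 72.3 and 246 in knockouts. Within the pair of control 1 and knockout 1, 5 of 7 Sprr genes lay above 0, within control 2 and knockout 2 all 7 lay below, and within control 3 and knockout 3, 6 of 7 lay below. Control 3 also held the highest skeletal muscle marker sum of its table (8 of 8 markers measured, controls 786 to 11218, knockouts 161 to 1184, none at 0 in all), and the part of muscle in these values was not tested.

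In aged females Sprr1b was 19.1 and 20.2 in controls against 47.1 and 38.9 in knockouts, both knockouts above both controls, and its change was 1.09 (SE 0.35, limma adjusted p = 0.24). Sprr2h and Sprr1a were the 2 Sprr genes below 0 there. In aged males Sprr1b was 34.7, 112.7 and 2091 in controls against 1435, 37.8 and 874 in knockouts, so control 6 and knockouts 4 and 6 were high and the other 3 libraries low. Sprr2h was 12.4, 26.9 and 479.6 in controls against 267, 34.1 and 267 in knockouts, Sprr2g 1.90, 5.06 and 49.6 in controls against 53.3, 5.21 and 40.8 in knockouts and Sprr2e 0, 2.05 and 13.8 in controls against 31.4, 1.06 and 15.7 in knockouts, with the same 3 libraries high in each. Without the 3 aged male libraries whose Gh went against their labels, 1 control was left against 2 knockouts, and the control was assumed to vary like the knockouts. Sprr1b (log2 change 4.97, limma adjusted p = 0.000222), Sprr2h (log2 change 4.32, adjusted p = 0.00283) and Sprr2d (log2 change 4.41, adjusted p = 0.0176) were then called higher, beside 0.213% of all genes called higher. Sprr2d reached the minimum only in the knockouts (4.75 in control 4), so it had to be higher there to be tested, and no count or median over the members is read from this subset. Control 4, the lone control of the subset, also held the highest skeletal muscle marker sum of its table. That sum was 15591, against 581 in knockout 4 and 245 in knockout 6, and the part of muscle in these changes was not tested.

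Among the S100-fused type, large proteins that join a calcium-binding domain to repeats, repetin stood out by size. Rptn in young females was 57.0, 52.9, 37.1 and 119.7 in controls against 103, 128.2, 274, 229 and 424 in knockouts. Knockouts 2 to 5 lay above every control, and control 4 lay above knockout 1. The change was 1.74 (SE 0.44, limma adjusted p = 0.0538), and 0.00211 was its adjusted p with the series as a term; it was called without control 4 or without knockout 1 (both 0.0347). In aged females Rptn was 246 and 296 in controls against 318 and 906 in knockouts, with no overlap and a change of 0.99 (SE 0.45). In young males it was 33.2, 106 and 101 in controls against 92.8, 70.2 and 118 in knockouts. In aged males, at 48.4, 37.6 and 2000.4 in controls against 121, 59.8 and 306 in knockouts, control 6 stood far above the rest.

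Hornerin and filaggrin-2 had no called change. Hrnr was 3579, 6595, 3148 and 3112 in controls against 4928, 3068, 5295, 2235 and 3807 in knockouts in young females and 3073, 4642 and 9939 in controls against 2575, 1989.5 and 5384 in knockouts in young males, where control 3 was highest. It was 4384 and 5317 in controls against 3399 and 4537 in knockouts in aged females and 5739.5, 10890.5 and 32201 in controls against 8894, 11192 and 9158 in knockouts in aged males, with control 6 highest. Flg2 was 19666 to 36974 in controls and 19703 to 30312 in knockouts of young females, 20516 to 25321 and 16776 to 23378 in young males, 40039 to 42019.5 and 32629.7 to 45176 in aged females and 30975 to 48596 and 29874 to 63981 in aged males, and its changes stayed between -0.15 and 0.04. Cornulin (Crnn) was tested in the aged tables alone. In aged females it was 55.5 and 22.2 in controls against 4.06 and 8.15 in knockouts, a change of -2.41 (SE 0.62, limma adjusted p = 0.154). Crnn reached the minimum there only in the controls, so it had to be lower in knockouts to be tested. The counts of tested and of non-overlapping members and the member median of aged females include it. In aged males Crnn was 1.91, 5.14 and 192 in controls against 0, 11.7 and 136 in knockouts, with control 6 and knockout 6 high. Hrnr and Rptn overlap another annotated gene, Gm37245, and part of their reads may be shared with it.

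Of the genes outside the complex, Cst6, which encodes an inhibitor of cysteine proteases in the upper epidermis, was called. In young females it was 25663, 19337, 20155 and 20116 in controls against 26104, 33834, 32713, 28749.5 and 32709 in knockouts, so that all knockouts lay above all controls, with control 1 just under knockout 1. The change was 0.53 (SE 0.13, limma adjusted p = 0.0448) and the exact permutation p 0.00794. It was no longer called when any of 7 of the 9 libraries was left out (limma adjusted p 0.0737 to 0.129), though its change stayed between 0.49 and 0.56 in those fits. Cst6 was 18034, 18024 and 27248 in controls against 23033, 21646 and 33984 in knockouts in young males, 21999.5 and 32225 in controls against 22908 and 28731 in knockouts in aged females and 22329, 19828 and 24697 in controls against 39168, 20401 and 37816 in knockouts in aged males, overlapping in each, with changes of 0.31, -0.05 and 0.49.

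Krtdap, Dmkn and Sbsn, 3 secreted products of differentiating keratinocytes, passed no test. Krtdap was 56987, 54800.1, 31237 and 35336 in controls against 53078, 57273, 34417, 23461 and 33640.0 in knockouts in young females, where the 4 libraries of series U011 lay above the other 5. It was 58955, 32302 and 43135 in controls against 46646, 32883 and 36184 in knockouts in young males, 46335 and 40466 in controls against 51052 and 49004 in knockouts in aged females and 62597, 80024 and 60721 in controls against 86418, 99096 and 53212 in knockouts in aged males. Its changes were -0.17, -0.19, 0.21 and 0.19. Dmkn and Sbsn had changes of -0.11 to 0.23 and -0.06 to 0.19 over the 4 tables. Cnfn (cornifelin) was lower by value in 3 tables, -0.55, -0.30 and -0.56, and higher in aged males (0.51), none called; with the series as a term it was called lower in young females (-0.46, limma adjusted p = 0.02). Kprp and Crct1, small complex genes, had changes of -0.42 to 0.15 and -0.40 to 0.29.

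Other genes of the process were read from fixed lists. None of the 3 transglutaminases (Tgm1, Tgm3 and Tgm5), of the 7 scaffold and desmosome genes, of the 12 proteases, deiminases and inhibitors or of the 18 transcription factors of keratinocyte differentiation was called by limma in any table. Of 6 suprabasal keratins, Krt1 was called in young females, with a mean of 37748 in controls and 90255 in knockouts, a log2 change of 1.25 (SE 0.17, limma adjusted p = 0.00322). Of 6 stress keratins and calgranulins, S100a8 was called in young females (log2 change 2.76, SE 0.67, limma adjusted p = 0.0465) and S100a9 in aged females (log2 change 2.54, SE 0.35, limma adjusted p = 0.0478), both of them genes of the same chromosomal complex that inflamed keratinocytes are known to induce. Of 14 neighbours in the complex, Tchh (trichohyalin) was called in young females, with means of 109.8 in controls and 225 in knockouts (limma adjusted p = 0.0251). All 4 calls were of higher levels in knockouts, beside 1.54% of all genes called higher in young females and 25 of 14652 in aged females. Hair follicle markers of young females summed to 30799.5 to 40132 in controls and 39838 to 54010 in knockouts, which overlapped. None of the 5 of them that were tested was called by limma, and their part in the calls above was not tested.

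The change of a member was also compared between tables. Between young females and young males, between young females and aged females and between young and aged males, none of the 35 members tested in both differed past an adjusted p of 0.05, beside 0, 3 (0.0218%) and 0 of all genes (13535, 13792 and 13639 tested). At an unadjusted p under 0.05 there were 4, 3 and 2 members, and with a normal reference there were again no called members. For Sprr2h in young against aged females, with changes of 1.07 and -0.64, the unadjusted p was 0.0124 and the adjusted p 0.9992 from limma's moderated errors. A call in 1 table and not in another is therefore not read as a difference between them. With so few libraries, these tests cannot show that the changes are alike either.

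Each of the authors' deposited tables of comparisons, as used here, has 16383 rows with symbols up to the letter O. It lists 33 of the members, and the other 18 (Rptn, Sbsn and the 16 Sprr genes) were not analysed in it. Percentages below are over the listed genes with an adjusted p. In the authors' deposited table for young females Cst6, Ivl and Lce1e passed an adjusted p of 0.05 (667 of 9300 genes, 7.17%), with Lce1e at a log2 change of -1.68 (SE 0.54, adjusted p = 0.0346). In the authors' deposited table for aged females 14 members were lower, Crct1 and every Lce1 gene but Lce1m, where 4.5% of genes passed. No member passed in the authors' deposited tables for young males (0.126%) or aged males (0.0081%). In the authors' deposited table for heterozygous females none passed either (0.271%). There the Lce1 changes were above 0 for 14 of 14 genes, between 0.15 and 0.76 with a median of 0.41, and Lce1e was at a log2 change of 0.54 with a standard error of 1.34. In the same authors' deposited table Ivl was at 0.64 (SE 0.64) and Cst6 at 0.17 (SE 0.18). The control mean of Lce1e was 157 in the authors' deposited table for heterozygous females and 209.5 in that for young female knockouts. For Lce1m these means were 20556 and 29527, where controls 3 and 4 read 12326 and 22964 and controls 1 and 2 read 35937 and 46880. Which controls were pooled for the heterozygous females is not stated, and some may be shared. Control 3, the lowest control for both genes, may weigh more there. Its part in the Lce1 changes above 0 was not tested.

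**Figure D5:**
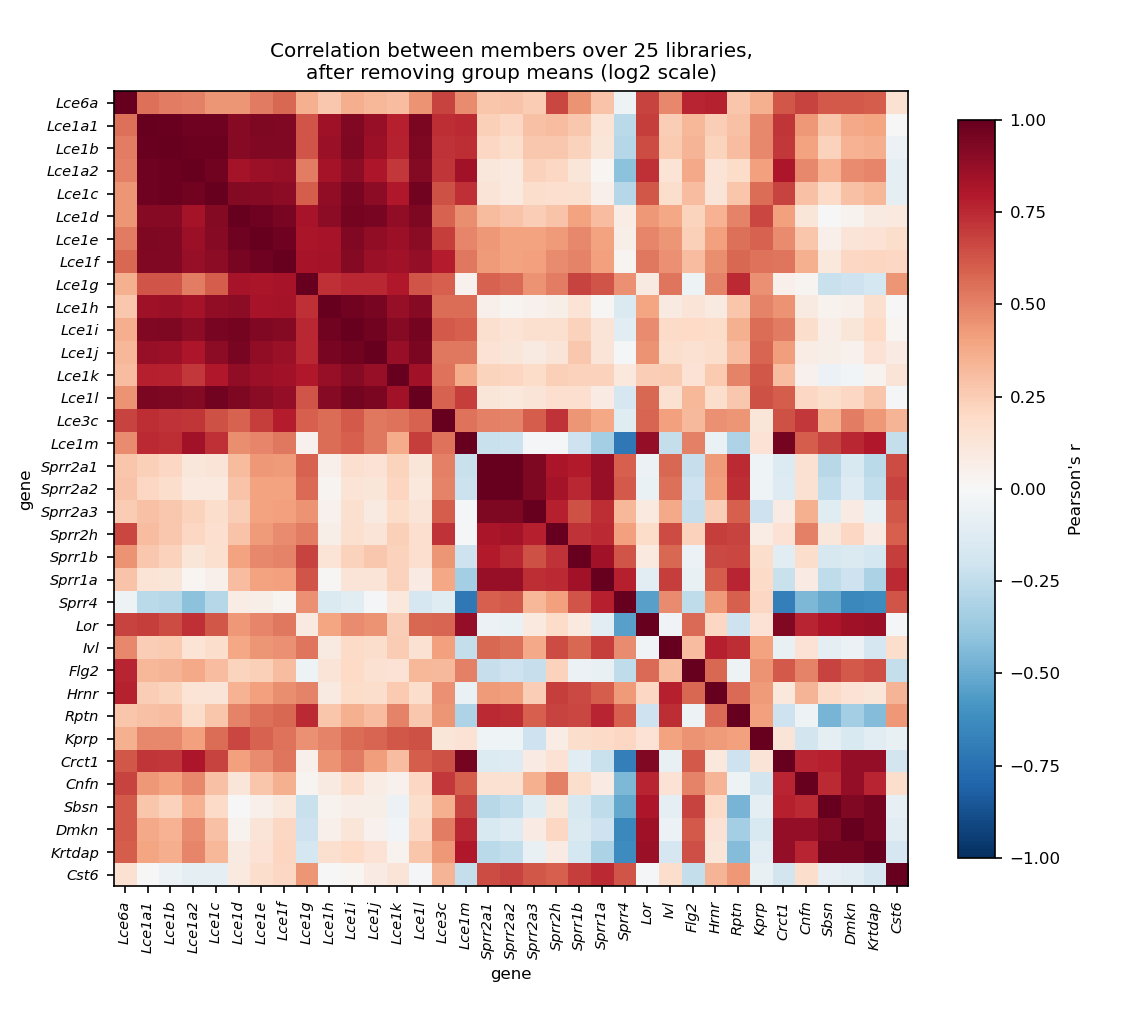
Each cell is Pearson's r between 2 of 35 members over 25 libraries, on the log2 scale, after the mean of its group and table was removed from each value, with genes ordered by role on both axes. Red blocks hold the Lce1 genes (median r 0.87), Sprr1 and Sprr2 genes (0.82) and Sbsn, Dmkn and Krtdap (0.95); Lce1 with Sprr is pale (0.19).

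With group means removed, members varied between libraries in blocks, which were named after the values were seen. Over 25 libraries with 17 residual degrees of freedom, the median of Pearson's r was 0.87 among the 14 Lce1 genes, 0.82 among 6 Sprr1 and Sprr2 genes (the near-identical copies among them) and 0.95 among Sbsn, Dmkn and Krtdap. Lce1 genes with Sprr1 and Sprr2 genes had a median of 0.19. Lce1m went with Crct1 at 0.96 and Lor at 0.88, and with the other Lce1 genes at 0.05 (Lce1g) to 0.84 (Lce1a2), as a description. Ivl went with Rptn at 0.74 and with Lce1j at 0.18. Without the aged male libraries the medians were 0.89, 0.73, 0.95 and 0.05, in the same order. Ivl then went with Rptn at 0.52 and with Lce1j at -0.005. In the 9 libraries of young females alone the medians were 0.93, 0.57, 0.99 and 0.56. Ivl there went with Rptn at 0.74 and with Lce1j at 0.43. Differences between series of library numbers were not removed. These points share library preparation and depth, and no p is attached to them.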

How the data were processed

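The deposited tables give normalized signal per gene and library, made by the authors; STAR, DESeq2 and the build GRCm38 are named, with no role, in the submitters' processing notes, and the counter and annotation are not given in the sources used here. Low values fell within 0.1 of a whole multiple of a library step for 54.2% to 88.5% of genes, so whole reads were not recovered and no count test was run. The authors' deposited comparison tables also hold a log2 fold change, a test score and p-values. Each table has 24946 usable gene symbols after rows with date-like or repeated names were dropped. Genes with at least 10 in as many libraries as the smaller group were tested on log2(value + 1) with limma 3.58.1 in R 4.3.3 (intensity trend, Benjamini-Hochberg threshold 0.05), which was tested on simulated data. Tables were scaled separately, and tests were made within a table; differences between tables used limma's moderated standard errors with Welch-Satterthwaite degrees of freedom. Locations and 50-base words came from GENCODE, promoters from RefSeq.

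The members and lists were chosen with earlier results of these data known. Values are named for called genes, the 3 largest rises and falls in each table and a fixed set of precursors. Alternatives were another pseudocount, no filter, other scalings, no trend, a term for the library number series and each library left out. Replicate numbers follow accession order and pair nothing.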

Additional observations from a re-analysis of the deposited data

Results flagged for a closer look

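In 30 groups of 4 or 5 libraries, all of young females, 6 had a library far from the others. Chance gives about 1 in 20 for a single group. These groups are genes measured in the same libraries, and genes that vary together are not separate tries. The count is therefore not read against that rate. Control 3 was low for 4 Lce1 genes: Lce1d at 94.9 where the other controls were 620.0 to 725, Lce1e at 41.5 against 229 to 286, Lce1i at 47.3 against 407 to 431, and Lce1j at 16.8 against 186 to 249. Control 1 was high for Cst6, at 25663 where the others were 19337 to 20155. Knockout 4 was low for Sprr1b, at 17.4 where the other knockouts were 69.5 to 92.0. Groups of 2 or 3 libraries could not be checked this way.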

How the results depend on the processing

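Of 345 combinations of a named gene and an alternative, 299 kept direction and side of the threshold, 22 lost the call, 13 gained it and 11 changed sign; none of the 11 was a called gene. In young females 2 members were called; it was 1 without the filter, 3 with quantile normalization, 11 with the series block, 1 to 4 with a library left out, and, chosen after seeing the data, 10 on series U011 alone and 1 without U025. In aged females 2 became 0 without the filter or the trend, 1 with quantile normalization, 9 with the series block and 0 to 7 with a library left out. Young males stayed at 0 throughout. Aged males were at 0 except for 3 without controls 5 and 6 and knockout 5. With each library left out, changes that crossed 0 ran from -0.17 to 0.65 (Rptn) and -0.47 to 1.32 (Sprr4) in young males. In aged males they ran from -0.95 to 0.29 (Hrnr), -2.09 to 1.51 (Crnn) and -1.26 to 1.59 (Rptn). Without the 3 aged male libraries the changes were 0.65, 2.01 and 1.97 for Hrnr, Crnn and Rptn. Crnn reached the minimum in that subset only in knockout 6 (136, against 1.91 in control 4 and 0 in knockout 4). Its change there rests on 1 library, and the filter favoured a value above 0. The cause of the changes of sign was not tested. The labels carry no replicate numbers that pair libraries; the series block, with 1 control and 1 knockout per series in every table but young females, is the paired fit given here. Small groups limit all of these tests, and the low Sprr2 and Lce3 genes rest on few reads.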
